A study of Rattus norvegicus with 2 samples.

Results

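The receptor genes described here were the rows of the deposited table whose gene name contains the word receptor. Of 115 such rows, 5 annotated to the defense response were set aside, and 2 more, Itga5 and Tnfrsf11b, were left out by name, which left 108 of the 2325 listed genes. The members were grouped from their names and deposited annotation into 28 G-protein coupled receptors, 12 receptor tyrosine kinases, 4 cytokine receptors, 5 nuclear receptors and 59 others. Their values did not enter the grouping, though earlier results of these data were known when it was chosen. Among the others, 22 carry the word in their name but are not receptors themselves: they bind, modify, inhibit or activate receptors, or belong to a family named after one, and are called partners below.

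RNA sequencing compared 1 library of untransfected bone marrow mesenchymal stem cells (bmMSCs) with 1 library of such cells 10 days after they were co-transfected with Pdx1 and Ngn3. Both came from Sprague-Dawley rats at passages 3 to 5. Pdx1 is a homeodomain factor of pancreas development and Ngn3 a basic helix-loop-helix factor that starts the endocrine programme of the pancreas. Mesenchymal stem cells are the adherent stromal cells of bone marrow. The comparison library was untransfected, so the transfection itself and the introduced genes cannot be told apart. No matching day is given for the untransfected library, so days in culture cannot be told apart from them either. The labels do not say how many rats or cultures each library holds.

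Receptors are the proteins through which a cell reads hormones, growth factors, transmitters, lipids and neighbouring cells. G-protein coupled receptors span the membrane and switch on heterotrimeric G proteins, receptor tyrosine kinases pair up on binding a ligand and phosphorylate themselves, cytokine receptors recruit kinases or adaptors, and nuclear receptors are transcription factors, many of them switched by steroids or other lipids. In stromal cells of bone marrow, receptors for platelet-derived, fibroblast and epidermal growth factors, for TGF-beta and for parathyroid hormone are known for their parts in growth and in the choice between bone, fat and cartilage fates.

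The depth behind the values was 7800831 reads in the untransfected and 7415094 in the transfected library. With 1 library per condition no test across replicates was possible, no p-value is given, and each interval is an exact 95% interval for counting error only. A gene was called higher or lower where the ratio of scaled reads was at least 2-fold and its interval excluded 1. The deposited table lists only changes of that size, so all its rows passed, and what can be compared is the direction and size of the change. Among the markers fixed for cell identity, the 12 listed smooth muscle genes of 14 (1 higher, 11 lower) summed to 15589.7 RPKM, reads scaled for gene length and library size, in the untransfected library and 4824 RPKM in the other. The 9 listed stromal markers of 22, which include the member Pdgfra, had reads in both libraries, 3 of them higher (Pdgfra, Cxcl12, Vcam1) and 6 lower, and summed to 2496 and 1039 RPKM, mostly from Itgb1 and Thy1. The 5 listed neuronal markers of 16 summed to 17.3 and 87.0 RPKM, the 4 blood cell markers of 34 (2 higher, 2 lower) to 12.4 and 5.22 RPKM with Cd4 at 0 reads in untransfected cells, and the single endothelial marker of 14 to 5.30 and 1.57 RPKM. Only Pcsk2 of 24 pancreatic endocrine markers was listed. The part of these shifts in the receptor values was not tested, and in bulk RNA fewer cells of a type and less RNA per cell cannot be told apart.

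The following 4 stretches of upstream sequence are shown for the 3 Eph receptors that changed most, of 5, and for PVR. By the deposited length column, PVR was one of the 3 most abundant members of untransfected cells. Each is the 250 bases before the gene's start in RefSeq's GRCr8 promoter table, read 5′ to 3′ on the gene's strand. Capitals mark CAGATG or its reverse complement CATCTG, an E-box of the kind basic helix-loop-helix factors bind, TAATTA, a homeodomain core that reads the same on both strands, and TGACGTCA, the cAMP response element, which also reads the same on both strands. No pair of these motifs overlaps in the sequences shown. The motifs were chosen after the values were seen. The fold given for Ephb1 puts 3 reads for its 0 untransfected reads, and its interval limit was 61.1-fold.
Ephb1, 75.7-fold higher at least, GRCr8 chr8:111823760-111824009, minus strand: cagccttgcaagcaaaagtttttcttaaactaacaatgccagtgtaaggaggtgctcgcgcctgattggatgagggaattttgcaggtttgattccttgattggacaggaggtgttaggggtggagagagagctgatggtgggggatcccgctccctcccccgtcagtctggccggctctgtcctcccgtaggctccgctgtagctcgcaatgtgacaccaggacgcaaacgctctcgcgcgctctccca
Epha1, 10.3-fold higher, GRCr8 chr4:72227475-72227724, minus strand: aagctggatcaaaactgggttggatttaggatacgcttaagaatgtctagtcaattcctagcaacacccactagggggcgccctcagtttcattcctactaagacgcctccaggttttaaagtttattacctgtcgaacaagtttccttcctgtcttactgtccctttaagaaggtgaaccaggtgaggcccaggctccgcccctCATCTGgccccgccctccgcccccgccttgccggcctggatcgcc
Epha2, 12.9-fold lower, GRCr8 chr5:158888379-158888628, plus strand: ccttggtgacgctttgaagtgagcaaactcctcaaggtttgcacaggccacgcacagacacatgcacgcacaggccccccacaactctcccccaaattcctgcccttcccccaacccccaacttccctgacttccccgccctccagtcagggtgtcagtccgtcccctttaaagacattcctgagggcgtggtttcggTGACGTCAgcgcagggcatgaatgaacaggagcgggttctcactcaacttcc
PVR, 9.92-fold lower, GRCr8 chr1:88704642-88704891, minus strand: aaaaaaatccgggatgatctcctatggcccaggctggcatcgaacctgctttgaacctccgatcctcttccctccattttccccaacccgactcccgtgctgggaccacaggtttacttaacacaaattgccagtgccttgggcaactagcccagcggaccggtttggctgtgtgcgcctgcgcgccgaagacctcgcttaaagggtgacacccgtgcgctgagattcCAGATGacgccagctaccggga

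These sequences show that Epha2 carried the cAMP response element, that Epha1 and PVR carried the E-box, and that these letters were not in the Ephb1 window, nor in those of Ephb2 and Ephb3, which are not printed. Promoters of 77 of the 108 members were matched by gene identifier. CAGATG occurred in 6 of the 77 (7.79%), against 14.0% of the 33469 promoters in the table, with the 6 split into 4 higher genes (Epha1, Gabrq, Gpr4 and Grm8, the last with its sign changed under median-of-ratios scaling) and 2 lower ones (Fgfr2, PVR). TAATTA occurred in 1 member, Ptprv (1.30%), against 4.86% of all promoters. TGACGTCA occurred in 3 members, the lower Epha2 and LOC686323 and the higher Ptpru (3.90%), against 1.59% of all promoters. A match is a description of the letters and not a bound site.

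Of the 108 receptor genes, 58 (53.7%) were higher in the transfected library and 50 lower, against 63.5% higher and 36.5% lower over all 2325 listed genes. Under TMM scaling the higher genes made up 41.2% of the members' calls and 46.4% of all calls, and under median-of-ratios scaling 34.2% and 37.6%, since these scalings moved every log2 ratio by -0.78 and -1.20. Both factors were computed from the listed genes alone, all selected for change, so no unchanged genes anchor them. Which scaling is nearer to the true levels was not tested. The median log2 ratio of the members was 1.07 and that of all listed genes 1.24, or -0.13 and 0.038 under median-of-ratios scaling. Under TMM scaling 23 of the higher members no longer passed the 2-fold rule, among them the abundant Pdgfra, Nptxr, Tgfbr1, Tgfbr2 and LOC100360920. Under median-of-ratios scaling 25 higher members no longer passed it and 7 more changed sign to log2 ratios between -0.07 and -0.20, too small to count as lower: Grm8, Nr1d1, Nr4a1, M6pr, Irak2, Reep6 and Ptprt. The higher members had a median change of 4.36-fold and the lower ones of 3.50-fold, beside 3.41-fold and 3.10-fold over all listed genes. All members together held 40956 untransfected and 42311 transfected reads.

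**Figure D1:**
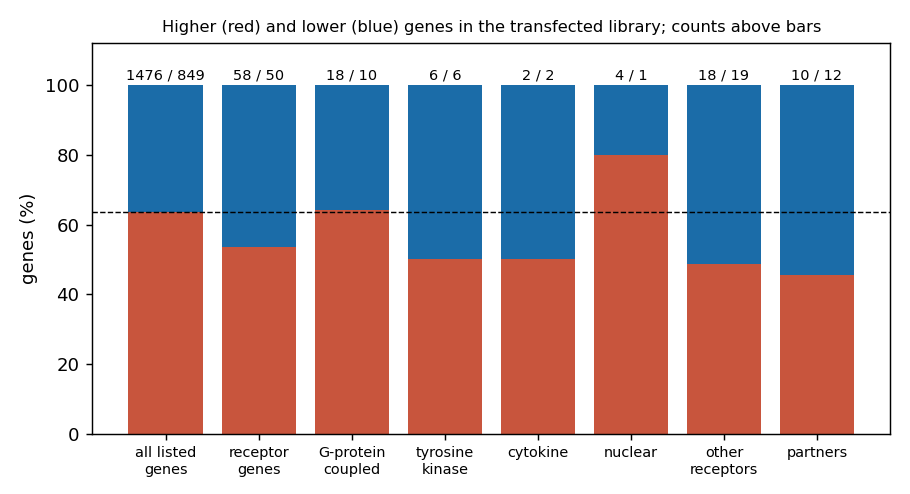
Share of higher (red) and lower (blue) genes among all listed genes, the 108 receptor genes and their classes, in percent, with counts above the bars and a dashed line at the 63.5% of all listed genes. The G-protein coupled class sat at 64.3%, close to the line, the 4 of 5 nuclear receptors above it, and the other classes below it.

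By level per length, Tnfrsf12a, Axl and PVR were the 3 most abundant members in untransfected cells, at 484, 230.0 and 108 RPKM. Their intervals did not overlap. Levels and ranks use the deposited length column. With the 1056 bases of its description in place of 3643, Htr2a would rank above PVR in untransfected cells. In transfected cells the order began with Antxr1 at 266 RPKM and LOC100360920, the retention receptor KDEL receptor 2, at 170.0 RPKM. Then came Tnfrsf12a at 109.7 RPKM (interval 102 to 118), Tgfbr2 at 109 RPKM (104 to 114) and Axl at 104 RPKM (99.4 to 108), 3 neighbours that counting error does not put in order. PVR dropped from rank 3 to rank 35 of 108 and Plaur from rank 4 to rank 26, while Gprc5b went from rank 51 to rank 9. At 10 RPKM or more were 36 members in untransfected and 42 in transfected cells. Members whose mean level over both libraries was at least 10 RPKM were higher in 23 of 43 cases (53.5%) and those below it in 35 of 65 (53.8%). Over all listed genes the shares were 61.0% and 65.8%.

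**Figure D2:**
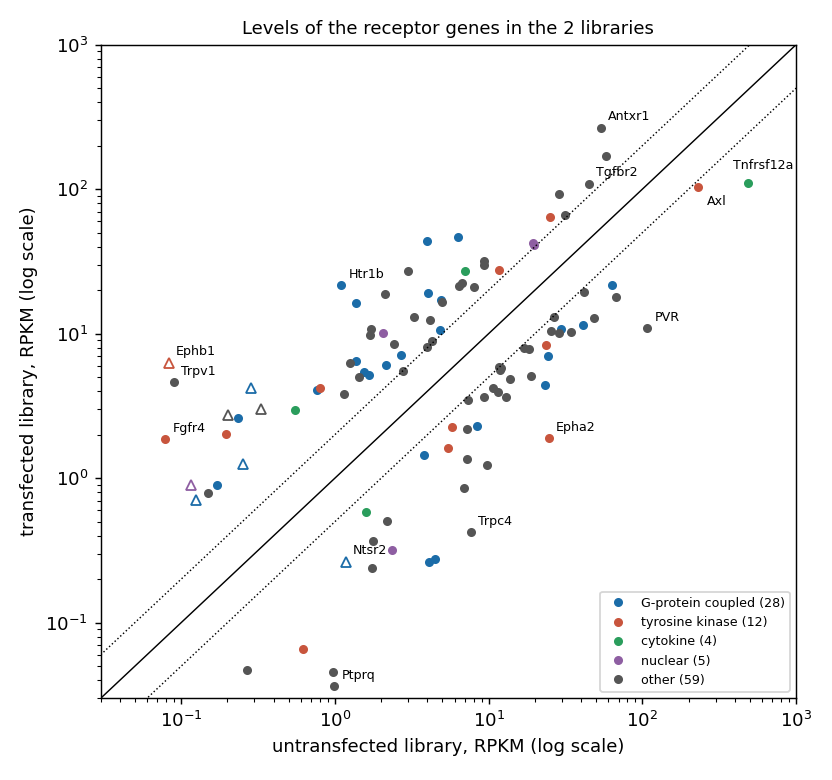
Level of each receptor gene in RPKM in the untransfected (x axis) and transfected (y axis) library, both on log scales, coloured by class. Open triangles are genes with 0 reads in a library, drawn at the 3 reads that a count of 0 allows, the solid line marks equal levels and the dotted lines 2-fold. Antxr1 lies highest on the y axis at 266 RPKM and Tnfrsf12a farthest right at 484 RPKM.

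G-protein coupled receptors were the largest class, with 18 of 28 higher (64.3%), near the 63.5% of all listed genes. The largest increases included receptors of transmitters and of a gut hormone. Htr1b, a serotonin receptor that lowers cAMP, had 10 untransfected and 186 transfected reads, or 1.10 and 21.6 RPKM, and was 19.6-fold higher (interval 10.4 to 41.5). Gabbr2, the subunit of the GABA-B receptor that couples to G proteins, had 10 untransfected and 105 transfected reads and was 11.0-fold higher (5.77 to 23.7). Ghsr, the receptor of the hunger hormone ghrelin, had 0 untransfected and 42 transfected reads. It was 14.7-fold higher when 3 reads stand for 0 (interval limit 11.5-fold). Htr1b and Gabbr2 stood at 1.10 and 0.235 RPKM in untransfected cells, where Ghsr was not detected at a floor of 0.285 RPKM.

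The highest transfected level of the class belonged to an orphan receptor. Gprc5b, of a retinoic acid-inducible family, had 125 untransfected and 887 transfected reads and stood at 6.29 and 46.9 RPKM (7.47-fold higher, interval 6.18 to 9.08). Its relatives Gprc5a and Gprc5c, named after their values were seen, went the other way, at 3.45-fold and 3.65-fold lower, with 396 untransfected and 109 transfected reads for Gprc5a and 269 untransfected and 70 transfected reads for Gprc5c. The 3 listed members of this family were therefore split in direction under every scaling tried.

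Among the decreases, Olr59, an olfactory receptor, had 101 untransfected and 6 transfected reads and was 16.0-fold lower (interval 7.10 to 44.6). Olfactory receptors form a large family of similar genes, and the handling of reads shared between such genes is not stated in the labels. Gpr126, an adhesion receptor needed for myelination by Schwann cells, had 795 untransfected and 144 transfected reads (5.25-fold lower, 4.39 to 6.31). Htr2a, a serotonin receptor that acts through phospholipase C, had 1166 untransfected and 312 transfected reads and was 3.55-fold lower (3.13 to 4.04). For Htr2a the length column (3643 bases) differed from the length in the row's description (1056 bases), so its level of 41.0 and 11.5 RPKM depends on which is right, while its ratio does not. Ntsr2, a neurotensin receptor, had 14 untransfected and 0 transfected reads. It lay 4.44-fold lower with 3 reads put for 0 (interval limit 3.15-fold).

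The remaining receptors of this class were picked out with values known. Receptors of vessel-active peptides and lipids were higher, of which Agtr1a and Ptger4 were no longer called under TMM scaling (log2 ratios of 0.72 and 0.61), nor, with Calcrl (0.61), under median-of-ratios scaling (0.29 and 0.19). Vipr2, for vasoactive intestinal peptide, had 105 untransfected and 475 transfected reads (4.76-fold, interval 3.84 to 5.94), Ednra, for endothelin, 49 untransfected and 221 transfected reads (4.74-fold, 3.47 to 6.61), and Calcrl, for calcitonin gene-related peptide and adrenomedullin, 121 untransfected and 403 transfected reads (3.50-fold, 2.85 to 4.33). Agtr1a, the angiotensin II receptor, was 2.81-fold higher and Ptger4, a prostaglandin E2 receptor, 2.62-fold higher. Npy1r, a neuropeptide Y receptor, was 3.09-fold higher, the orphan Gpr83 3.54-fold and P2ry6, a nucleotide receptor, 5.33-fold. Npy1r was not called under TMM scaling (log2 ratio of 0.85), nor Npy1r (0.43) and Gpr83 (0.62) under median-of-ratios scaling. LOC682401, named in the table as similar to the adhesion receptor GPR56, had 38 untransfected and 434 transfected reads (12.0-fold higher, 8.61 to 17.2). The glutamate receptors Grm4 and Grm8 were 5.26-fold and 2.18-fold higher, the latter changing sign under median-of-ratios scaling. Gpr4, a proton sensor, and Htr7, a serotonin receptor that raises cAMP, had 0 untransfected and 14 and 16 transfected reads. Their increases were 4.91-fold and 5.61-fold with 3 reads put for 0 (interval limits 3.49-fold and 4.06-fold). On the lower side, LOC100363275, given as GPR124, a co-receptor in Wnt signalling, went from 63.0 to 21.8 RPKM (2.89-fold lower). Lgr4, a receptor of R-spondins, went from 29.5 to 10.8 RPKM (2.73-fold lower), and Pth1r, the parathyroid hormone receptor of bone, had 61 untransfected and 22 transfected reads (2.64-fold lower, 1.60 to 4.51).

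Across the classes, 9 members bind serotonin, GABA, glycine or glutamate, a grouping made after their values were seen, and 8 of them (88.9%) were higher, beside 63.5% of all listed genes. Grm8 and Glra1 were no longer called under TMM scaling (log2 ratios of 0.35 and 0.96), nor under median-of-ratios scaling (-0.07 and 0.54), which also ended the call of Grm4 (1.19). Beside those already given, Glra1, a glycine receptor subunit, had 83 untransfected and 263 transfected reads (3.33-fold, interval 2.60 to 4.32) and Gabre, a GABA-A receptor subunit, 39 untransfected and 186 transfected reads (5.02-fold, 3.54 to 7.28). Gabrq, another GABA-A subunit, had 0 untransfected and 39 transfected reads (an increase of 13.7-fold with 3 reads put for 0, interval limit 10.6-fold). Htr2a was the exception. The higher members of this set stood between 0.702 RPKM for Htr7 and 21.6 RPKM for Htr1b in transfected cells. The neuronal markers moved in the same direction, 5 of 5 higher, and their part in these values was not tested.

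**Figure D3:**
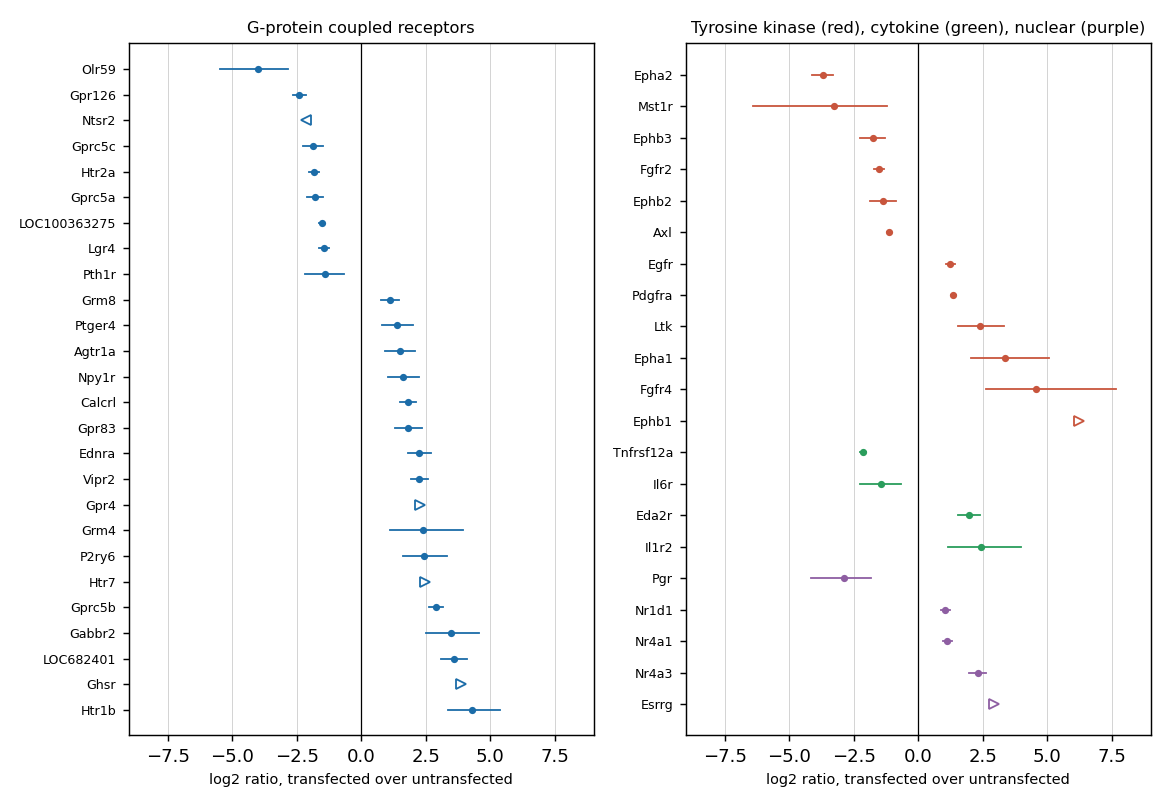
Log2 ratio of the G-protein coupled (left), tyrosine kinase, cytokine and nuclear (right) receptor genes reported here, with exact 95% intervals for counting error as horizontal lines. Open triangles are genes with 0 reads in a library, drawn at the value set by 3 reads and pointing away from 0. No gene drawn lies within 1 log2 unit of 0, since the table lists only such genes.

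Receptor tyrosine kinases were evenly split, 6 higher and 6 lower of 12, or 50.0% higher, beside 63.5% of all listed genes. Ephb1 changed most. It had 0 untransfected and 216 transfected reads, from below 0.0832 to 6.30 RPKM. The increase was 75.7-fold with 3 reads put for 0 (interval limit 61.1-fold). Eph receptors bind membrane-tethered ephrins on neighbouring cells and guide repulsion, migration and boundaries. Epha1 followed with 5 untransfected and 49 transfected reads (10.3-fold higher, interval 4.13 to 33.2), whereas Epha2 had 748 untransfected and 55 transfected reads and was 12.9-fold lower (9.82 to 17.3). Ephb3 and Ephb2, the latter named after its values were seen, were 3.39-fold and 2.55-fold lower, at 171 untransfected and 48 transfected reads and 134 untransfected and 50 transfected reads. Reads of the 5 listed Eph receptors together went from 1058 to 418. The most abundant of them changed from Epha2, with 24.5 RPKM in untransfected cells, to Ephb1, with 6.30 RPKM in transfected cells. Eph receptors that changed less are not listed, so the total of the family is not known.

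The listed receptors of fibroblast growth factors, Fgfr2 and Fgfr4, went in opposite directions too. Fgfr2 had 859 untransfected and 289 transfected reads and was 2.83-fold lower (interval 2.47 to 3.24), while Fgfr4 had 2 untransfected and 45 transfected reads and was 23.7-fold higher (6.18 to 201). At 1.86 RPKM in transfected cells, Fgfr4 remained below Fgfr2 at 8.37 RPKM. Receptors of this family that changed less are not listed, so its total is not known. Pdgfra, the platelet-derived growth factor receptor alpha of stromal cells, was the most abundant higher member of the tyrosine kinase class. It had 1278 untransfected and 3132 transfected reads and 25.1 against 64.7 RPKM (2.58-fold, 2.42 to 2.75). Egfr, the epidermal growth factor receptor, had 381 untransfected and 855 transfected reads (2.36-fold higher, 2.09 to 2.67). Axl, which binds Gas6 on dying cells, was the most abundant member of the class in both libraries. It was 2.21-fold lower (2.10 to 2.33), with 4785 untransfected and 2054 transfected reads. Ltk had 14 untransfected and 70 transfected reads (5.26-fold higher, 2.94 to 10.1), and Mst1r, the receptor of macrophage-stimulating protein, had 20 untransfected and 2 transfected reads (9.51-fold lower, 2.31 to 83.9), a wide interval that rests on 2 transfected reads.

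Of the 4 cytokine receptors, 2 were higher and 2 lower, while 63.5% of all listed genes were higher. Tnfrsf12a, the receptor of the cytokine TWEAK, was the most abundant member in untransfected cells. It had 3766 untransfected and 811 transfected reads, or 484 and 109.7 RPKM, and was 4.41-fold lower (interval 4.09 to 4.77). Il6r, the ligand-binding chain of the interleukin 6 receptor, had 57 untransfected and 20 transfected reads (2.71-fold lower, 1.60 to 4.76). Eda2r, a receptor of ectodysplasin A2 in the tumor necrosis factor receptor family, had 59 untransfected and 218 transfected reads (3.89-fold higher, 2.90 to 5.27), and Il1r2, a decoy that binds interleukin 1 without signalling, had 6 untransfected and 31 transfected reads (5.44-fold higher, 2.23 to 15.9). Under median-of-ratios scaling neither Eda2r (log2 ratio of 0.76) nor Il1r2 (1.24) was called. Tnfrsf12a held most of the reads of this class, which dropped from 3888 to 1080.

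Nuclear receptors were higher in 4 of 5 cases (80.0%), beside 63.5% of all listed genes. Nr1d1 and Nr4a1 were no longer called under TMM scaling (log2 ratios of 0.28 and 0.35) or median-of-ratios scaling (-0.15 and -0.07). Nr4a1 and Nr4a3 are immediate early orphan receptors that respond quickly to cAMP, growth factors and stress. Nr4a3 had 91 untransfected and 426 transfected reads (4.92-fold higher, interval 3.92 to 6.25), and Nr4a1 had 378 untransfected and 786 transfected reads (2.19-fold higher, 1.93 to 2.48, its sign changing under median-of-ratios scaling). Nr1d1, the clock repressor Rev-erb alpha, had 363 untransfected and 716 transfected reads (2.08-fold higher, 1.83 to 2.36) and changed sign under that scaling as well. Esrrg, an orphan receptor of oxidative metabolism, had 0 untransfected and 22 transfected reads, an increase of at least 7.71-fold (interval limit 5.76-fold), and reached 0.898 RPKM. The exception was Pgr, the progesterone receptor, with 62 untransfected and 8 transfected reads (7.37-fold lower, 3.52 to 17.8).

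Among the 37 other receptors, 18 were higher and 19 lower (48.6% higher, beside 63.5% of all listed genes). Antxr1, a cell surface protein that binds collagen and is the docking site of anthrax toxin, had 1420 untransfected and 6686 transfected reads, the most reads of any member in transfected cells, and was 4.95-fold higher (interval 4.68 to 5.25). Nptxr, a receptor of neuronal pentraxins, had 1082 untransfected and 3360 transfected reads and stood at 28.5 and 93.0 RPKM (3.27-fold higher, 3.05 to 3.50). Tgfbr2, the receptor that binds TGF-beta, had 728 untransfected and 1683 transfected reads (2.43-fold higher, 2.23 to 2.66). Its signalling partner Tgfbr1, named after its values were seen like the next gene, had 287 untransfected and 911 transfected reads (3.34-fold higher, 2.92 to 3.83), while the activin receptor Acvr1b had 130 untransfected and 59 transfected reads (2.09-fold lower, 1.53 to 2.90). Nptxr, Tgfbr1 and Tgfbr2 were not called under TMM scaling (log2 ratios of 0.93, 0.96 and 0.51) or median-of-ratios scaling (0.51, 0.54 and 0.08).

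Cation channels named as receptors went both ways. Trpv1, the heat and capsaicin channel of sensory neurons, had 2 untransfected and 98 transfected reads (51.5-fold higher, interval 13.9 to 432), with only 2 untransfected reads behind the size. Trpc4, a receptor-operated calcium channel, had 208 untransfected and 11 transfected reads (18.0-fold lower, 9.84 to 36.6). The other channels were picked out with values known. The 3 listed calcium release channels of internal stores were lower, beside 36.5% of all listed genes. Itpr1 went from 28.9 to 10.0 RPKM (2.88-fold), Itpr3 from 11.5 to 3.95 RPKM (2.91-fold) and Ryr3 from 30 to 5 reads (5.70-fold). Trpv2 was 2.07-fold lower. P2rx5, an ATP-gated channel, was 2.97-fold higher but was not called under TMM (log2 ratio of 0.79) or median-of-ratios scaling (0.37).

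All 3 listed members of the nectin family were lower, beside 36.5% of all listed genes. Nectins are adhesion molecules of the immunoglobulin type that serve as virus receptors. PVR had 1826 untransfected and 175 transfected reads and went from 108 to 10.9 RPKM (9.92-fold lower, interval 8.49 to 11.6). Pvrl2 and Pvrl1, named after their values were seen, were 3.35-fold and 2.35-fold lower, at 722 untransfected and 205 transfected reads and 282 untransfected and 114 transfected reads. Together they stood at 161 RPKM in the untransfected library and 29.0 RPKM in the transfected library. Lrp8, a receptor of reelin and apolipoprotein E, had 234 untransfected and 28 transfected reads (7.94-fold lower, 5.36 to 12.2). Ldlrad3, of the same superfamily, had 0 untransfected and 26 transfected reads (9.12-fold higher with 3 reads put for 0, interval limit 6.90-fold).

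Receptor phosphatases, which oppose tyrosine kinases, went both ways. Ptprv and Ptprt were not called under TMM scaling (log2 ratios of 0.63 and 0.27) or median-of-ratios scaling (0.21 and -0.16). Ptpru lost its call under median-of-ratios scaling (1.19), which left no listed phosphatase called higher. Ptprq had 57 untransfected and 2 transfected reads (27.1-fold lower, interval 7.16 to 229). The rest, named after their values were seen, comprised Ptprf, known as LAR, with 667 untransfected and 176 transfected reads (3.60-fold lower), Ptprv, a phosphatase of osteoblasts and testis, with 339 untransfected and 856 transfected reads (2.66-fold higher), Ptpru (5.26-fold higher) and Ptprt, at 2.06-fold higher but with its sign changed under median-of-ratios scaling.

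Further receptors outside the main classes were likewise picked out with values known. Gfra1, which binds the neurotrophic factor GDNF together with the kinase Ret, had 48 untransfected and 264 transfected reads (5.79-fold higher, interval 4.24 to 8.04), and Pear1, a platelet and endothelial receptor, 116 untransfected and 438 transfected reads (3.97-fold higher, 3.23 to 4.92). Tlr2, a sensor of bacterial lipopeptides, had 191 untransfected and 621 transfected reads (3.42-fold higher, 2.90 to 4.04). Tlr5, the sensor of flagellin, had 73 untransfected and 16 transfected reads (4.34-fold lower, 2.50 to 7.98). Tlr2 was not called under TMM scaling (log2 ratio of 1.00 after rounding) or median-of-ratios scaling (0.57), nor Pear1 under the latter (0.79). Sorting receptors were higher: LOC100360920, which returns proteins to the endoplasmic reticulum, by 2.93-fold and M6pr, which carries enzymes to lysosomes, by 2.12-fold, the latter changing sign under median-of-ratios scaling. Neither was called under TMM scaling (log2 ratios of 0.77 and 0.31), and LOC100360920 was not called under median-of-ratios scaling either (0.35). Plaur, the urokinase receptor, had 779 untransfected and 199 transfected reads (3.72-fold lower, 3.18 to 4.37) and Npr3, which clears natriuretic peptides, 255 untransfected and 65 transfected reads (3.73-fold lower, 2.83 to 4.98). Ahr, the dioxin receptor, was 2.45-fold lower, Adipor2, for adiponectin, 2.12-fold lower, Paqr6, a relative of it, 5.36-fold lower and Rtn4rl1, related to the Nogo receptor, 4.86-fold lower.

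**Figure D4:**
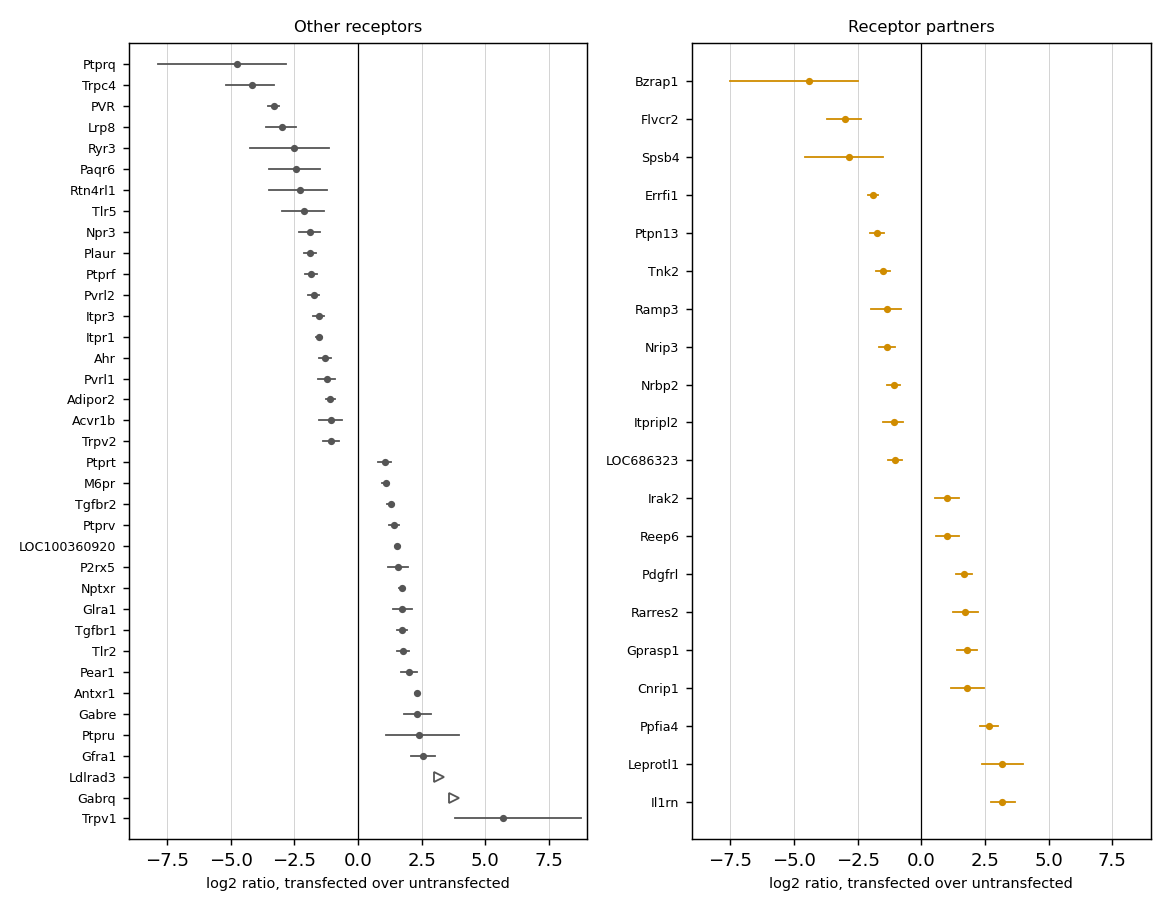
Log2 ratio of the 37 other receptor genes (left) and the partners reported here (right), with exact 95% intervals for counting error as horizontal lines and open triangles for genes with 0 untransfected reads. Trpv1 at 5.69 and Ptprq at -4.76 lie at the ends of the left panel, each with 2 reads in a library and a wide interval.

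Partners of receptors were higher in 10 of 22 cases (45.5%), beside 63.5% of all listed genes. Il1rn, the secreted antagonist of the interleukin 1 receptor, had 45 untransfected and 388 transfected reads and was 9.07-fold higher (interval 6.65 to 12.6). Leprotl1, a relative of a leptin receptor regulator, had 16 untransfected and 135 transfected reads (8.88-fold higher, 5.27 to 16.0). Bzrap1, which binds presynaptic RIM proteins, had 45 untransfected and 2 transfected reads (21.4-fold lower, 5.59 to 182). Irak2, a kinase of interleukin 1 signalling, lay close to the table's 2-fold limit, 2.01-fold higher with 64 untransfected and 122 transfected reads, and changed sign under median-of-ratios scaling. The remaining partners were picked out with their values known. Ppfia4, a liprin of synapses, had 78 untransfected and 466 transfected reads (6.29-fold higher), Rarres2, the chemoattractant chemerin, 47 untransfected and 148 transfected reads (3.31-fold higher) and Pdgfrl 109 untransfected and 332 transfected reads (3.20-fold higher). Rarres2 and Pdgfrl were not called under TMM scaling (log2 ratios of 0.95 and 0.90) or median-of-ratios scaling (0.53 and 0.48). Cnrip1, which binds the cannabinoid receptor, was 3.49-fold higher and Gprasp1, a sorting protein of G-protein coupled receptors, 3.48-fold higher. Neither Cnrip1 nor Gprasp1 was called under median-of-ratios scaling (both 0.60). Reep6 was 2.03-fold higher and changed sign under median-of-ratios scaling.

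On the lower side of the partners, Errfi1, the feedback inhibitor of the epidermal growth factor receptor family, was the most abundant, with 1130 untransfected and 286 transfected reads (3.76-fold lower, interval 3.30 to 4.29). Ramp3, which steers Calcrl towards adrenomedullin, had 92 untransfected and 34 transfected reads (2.57-fold lower, 1.72 to 3.93) while Calcrl itself was higher. Flvcr2, a transporter, and Spsb4 were 7.99-fold and 7.22-fold lower. Ptpn13, Tnk2, Nrip3, Nrbp2, Itpripl2 and LOC686323 were lower by 3.32-fold, 2.83-fold, 2.56-fold, 2.13-fold, 2.13-fold and 2.05-fold.

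Ligands of named receptors were read from the same libraries. From the fixed lists, 12 ligands formed 15 pairs with members, and in 6 of the 15 both genes went the same way. Pairs share genes and all pairs share both libraries, so they are not independent. The ligands of Egfr went against it: Hbegf was 3.15-fold lower (653 untransfected and 197 transfected reads), Tgfa 4.89-fold lower (417 untransfected and 81 transfected reads) and Areg 7.29-fold lower (46 untransfected and 6 transfected reads). Pdgfa, a ligand of Pdgfra, had 303 untransfected and 62 transfected reads (4.65-fold lower, interval 3.52 to 6.21), and Edn1, the ligand of Ednra, 114 untransfected and 29 transfected reads (3.74-fold lower, 2.47 to 5.83). Receptor higher and ligand lower was the arrangement in 5 of these pairs and, for Fgfr4 with Fgf2, in 1 more. For 4 of the 5 it rests on Egfr and Pdgfra, which were not called higher under TMM scaling (log2 ratios of 0.46 and 0.59) or median-of-ratios scaling (0.04 and 0.16), while their ligands stayed lower under both.

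For Il6r the arrangement was the reverse. Il6 had 133 untransfected and 1446 transfected reads (11.4-fold higher, interval 9.57 to 13.8) while Il6r was lower, and Il6st, the shared signalling chain gp130, had 3722 untransfected and 14281 transfected reads (4.04-fold higher, 3.89 to 4.19). Efna1, an ephrin bound by Epha1 and Epha2, had 12 untransfected and 61 transfected reads (5.35-fold higher, 2.85 to 10.9), with Epha1 and against Epha2. Fgf9 had 11 untransfected and 182 transfected reads (17.4-fold higher, 9.50 to 35.5), with Fgfr4 and against Fgfr2, whereas Fgf2 and Fgf10 were lower by 3.72-fold and 2.38-fold, with Fgfr2. Npy and Npy1r were both higher, Npy by 2.73-fold, though neither was called under TMM scaling (log2 ratios of 0.67 and 0.85) or median-of-ratios scaling (0.24 and 0.43), and so were Il1b and its decoy Il1r2, Il1b by 5.96-fold from 6 to 34 reads. Outside the lists, 4 ligands were added with their values known. Nptx1, bound by Nptxr, had 6 untransfected and 1420 transfected reads (249-fold higher), Plau, the urokinase bound by Plaur, 320 untransfected and 24 transfected reads (12.7-fold lower) and Reln, bound by Lrp8, 568 untransfected and 37 transfected reads (14.6-fold lower), each in the direction of its receptor, while Tgfb3 had 18452 untransfected and 3336 transfected reads (5.26-fold lower), against Tgfbr1 and Tgfbr2.

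**Figure D5:**
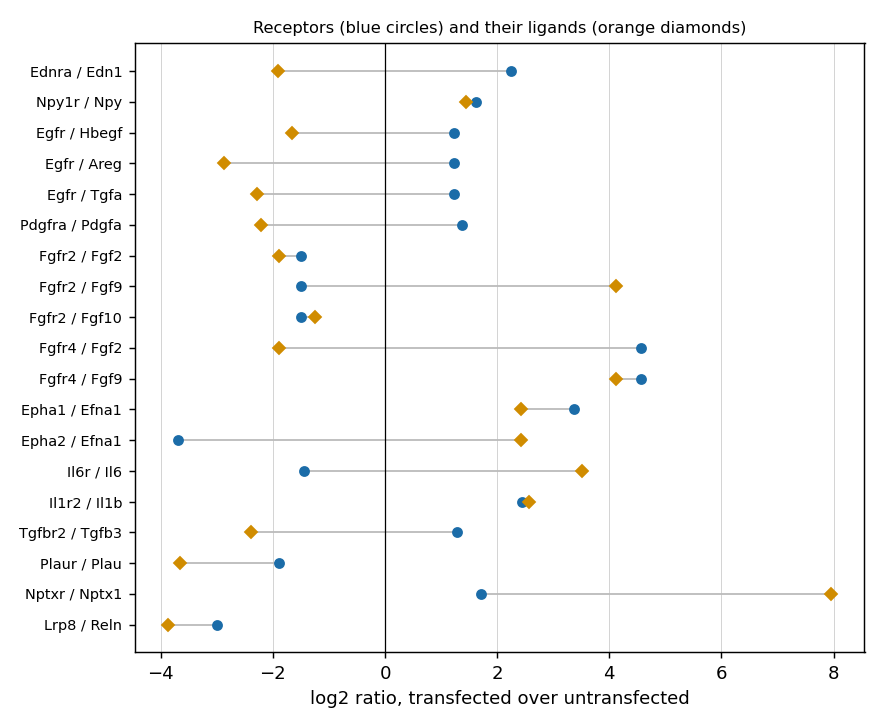
Log2 ratio of receptors (blue circles) and of their ligands (orange diamonds), 1 pair per line, transfected over untransfected. The first 15 pairs come from the fixed lists and the last 4 were added after their values were seen; the circles and diamonds of the 3 Egfr pairs lie on opposite sides of 0.

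Genes that act behind the receptors were counted from lists. Over all listed genes 63.5% were higher, or 31.6% under TMM scaling and 22.0% under median-of-ratios scaling. Of 54 G-protein signalling genes, 19 were listed, 13 higher and 6 lower, with 6 higher under TMM and 5 under median-of-ratios scaling. By level the leading ones were Rgs3, a protein that ends G-protein signals (749 untransfected and 1870 transfected reads, 2.63-fold higher), Prkar1a, a regulatory subunit of protein kinase A (2.10-fold higher, its sign changing under median-of-ratios scaling), Plcb4, a phospholipase C (1681 untransfected and 524 transfected reads, 3.05-fold lower) and Pde4b, which degrades cAMP (248 untransfected and 733 transfected reads, 3.11-fold higher). Among 42 adaptors and feedback regulators of tyrosine kinases, 10 were listed, 6 higher and 4 lower, with 3 higher under TMM and 1 under median-of-ratios scaling, where Dusp6 and Pik3r2 changed sign. Sh2b3 had 524 untransfected and 1602 transfected reads (3.22-fold higher), Spry1, a feedback inhibitor, 237 untransfected and 1109 transfected reads (4.92-fold higher) and the adaptor Shc2 234 untransfected and 936 transfected reads (4.21-fold higher), in contrast to Errfi1.

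The counts in the following lists stand beside 63.5% higher over all listed genes (31.6% under TMM and 22.0% under median-of-ratios scaling). Of 46 genes of cytokine signalling 7 were listed, all 7 of them higher. Only 3 were higher under TMM scaling and 2 under median-of-ratios scaling, where Jak2 and Irak2 changed sign. Jak1 and Jak2, the kinases bound to cytokine receptors, were 2.33-fold and 2.20-fold higher and Nfkb1, a subunit of NF-kappaB, 2.54-fold, with log2 ratios of 0.02, -0.06 and 0.14 under median-of-ratios scaling. Irak2, a member of the receptor genes, belongs to this list too. Cytokine ligands were higher in 6 of 6 listed cases from 28 (4 under TMM and 4 under median-of-ratios scaling), with Il33 at 71 untransfected and 3171 transfected reads and Tnfsf10 at 0 untransfected and 60 transfected reads, and Il15 3.21-fold higher. Peptide and chemokine ligands of G-protein coupled receptors were higher in 6 of 7 listed cases from 40, with Edn1 the exception, but in 2 under TMM or median-of-ratios scaling, the latter changing the sign of Cx3cl1. Of 49 tyrosine kinase ligands 15 were listed, 8 higher (3 under either scaling) and 7 lower, with Kitlg, the ligand of the kinase Kit, at 454 untransfected and 4829 transfected reads and Vegfa at 1962 untransfected and 413 transfected reads. Genes of steroid and retinoid handling had 6 listed of 27, 4 higher (3 under TMM, 1 under median-of-ratios scaling) and 2 lower. Hsd11b1, which regenerates active glucocorticoid, had 360 untransfected and 3110 transfected reads (9.09-fold higher, interval 8.15 to 10.2), Hsd17b4 was 2.10-fold higher (its sign changing under median-of-ratios scaling) and the fatty acid carriers Fabp3 and Fabp5 were 8.93-fold and 3.10-fold lower. Of 32 nuclear receptor cofactors Nrip3 was the one listed.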

How the data were processed

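Messenger RNA of 1 untransfected and 1 Pdx1 and Ngn3 co-transfected library of rat bmMSCs was sequenced on an Illumina GA instrument after oligo(dT) selection and random hexamer priming, per the labels' protocols. The submitters' processing notes name build rn4. The aligner, the counting tool and the use of strand are not given in sources used here. The deposited table holds raw read counts and the RPKM that the authors derived from them, with 0.001 where a library had 0 reads. Its log2 ratio of RPKM, p-value and false discovery rate are the authors', from an unnamed test, and were not used as results. The authors' deposited log2 ratios had a smallest size of 1.00, so every row is a gene selected for change.

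Library totals of 7800831 and 7415094 reads were implied by counts, lengths and RPKM, identically in all but 1 row. The rows held 21.7% and 20.2% of these reads. Reads per member, both libraries added, ran from 14 upwards with a median of 311. Ratios of reads over these totals were given exact Clopper-Pearson 95% intervals, and RPKM exact Poisson intervals (scipy 1.17.1). Where 0 reads were counted, 3 were put in their place. A fold for such a gene rests on that choice and is not itself a bound. The lower bound of the 95% interval is its interval limit. Reads were amplified by PCR with no molecular identifiers stated, so intervals cover counting error only. The scripts were tested on simulated data. The members, their grouping, the lists and the rule for naming genes were chosen with earlier results of these data known. That rule left predicted loci out and took all members of a class of up to 8, and otherwise the 5 higher and 5 lower with the largest interval bound nearest to 1, the 3 with the highest mean RPKM and the 2 closest to the 2-fold limit. From other lists it took the 4 with the highest mean RPKM and ligands of named receptors. Alternatives were TMM (edgeR 4.0.16), median-of-ratios and column-sum scaling, a 30-read minimum, a 1 RPKM pseudocount, a biological coefficient of variation set to 0.4, a 3-fold limit and other membership rules. Deposited symbols are used. A few genes are counted in the totals but are not reported here by name. RefSeq's GRCr8 tables gave names and promoters only, and 106 of 108 members matched by identifier.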

Additional observations from a re-analysis of the deposited data

How the results depend on the processing

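The 2 libraries allow no leave-one-out check, and no paired analysis was possible because each group has 1 sample. TMM and median-of-ratios scaling lower all ratios and so can only remove higher calls, and column sums raise them and can only remove lower calls. All these scaling factors were computed from the listed genes alone, which were selected for change. By its construction, median-of-ratios scaling brought the median log2 ratio of all listed genes from 1.24 to 0.038. A call lost or a sign changed under these scalings therefore does not show that a gene was unchanged or lower. Under TMM scaling 35 receptor genes were higher, 2 of them nuclear and 13 other, with a median log2 ratio of 0.29. Under median-of-ratios scaling 26 were higher, among them 11 G-protein coupled, 2 nuclear, 9 other and 0 cytokine receptors, and the median turned to -0.13. That scaling also changed the sign of the log2 ratio of Grm8 (-0.07), Nr1d1 (-0.15), Nr4a1 (-0.07), M6pr (-0.12), Irak2 (-0.20), Reep6 (-0.18) and Ptprt (-0.16). The median log2 ratio was 1.17 with column sums, 0.83 with log2(RPKM + 1) and 1.18 without partners, and without partners 18 other receptors were higher. With the biological coefficient of variation set to 0.4, 35 receptor genes were higher and 28 lower, including 11 G-protein coupled, 1 nuclear and 17 other higher genes, and over all listed genes 708 were higher and 397 lower. At a 3-fold limit 29 were lower and 2 nuclear receptors higher. With defense response genes kept, 4 cytokine receptors were higher. Of the 50 lower members, 43 were called with column sums and 39 with log2(RPKM + 1). The cause of these shifts beyond the construction of each setting was not tested.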

Other observations

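The 5 receptor-named genes that were set aside for their defense response annotation were all higher in the transfected library, against 63.5% of all listed genes. Il1rl1, the receptor of interleukin 33, had 1024 untransfected and 3488 transfected reads (3.58-fold, interval 3.34 to 3.85), and Il1rap, the chain it shares with the interleukin 1 receptor, had 185 untransfected and 460 transfected reads (2.62-fold, 2.20 to 3.12). Il1rap, with a log2 ratio of 1.39, would fall below the 2-fold rule under TMM scaling, which moves log2 ratios by -0.78. Il1rap and Il1rl1 (1.84) would both fall below it under median-of-ratios scaling (a move of -1.20). Olr1, a receptor of oxidized lipoprotein, had 37 untransfected and 196 transfected reads (5.57-fold, 3.91 to 8.15), and Cd40, a tumor necrosis factor receptor family member, 6 untransfected and 32 transfected reads (5.61-fold, 2.31 to 16.4). Il33, the ligand of Il1rl1, went from 71 to 3171 reads.

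Genes that end or relay G-protein signals were picked out with values known. Rgs4 had 0 untransfected and 220 transfected reads (77.1-fold higher with 3 reads put for 0, interval limit 62.2-fold). Rgs2 had 42 untransfected and 170 transfected reads (4.26-fold higher) and Rgs7 30 untransfected and 159 transfected reads (5.58-fold higher). Rgs16 had 248 untransfected and 11 transfected reads (21.4-fold lower). Adenylyl cyclases, which make cAMP, were split: Adcy7 (2.31-fold), Adcy8 (7.64-fold) and Adcy2 (3.21-fold) were higher and Adcy5 (2.65-fold) and Adcy4 (2.08-fold) lower. Adcy7 and Adcy2 were not called under TMM scaling (log2 ratios of 0.43 and 0.91), nor, with Rgs2 (0.89), under median-of-ratios scaling (0.01 and 0.48). The cytokine feedback inhibitors Socs2 and Socs3 were 13.5-fold and 10.5-fold higher, from 5 to 64 and from 7 to 70 reads.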
